A study of Mus musculus with 6 samples.

Results

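The BCL2 family genes examined here were Bcl2, Bcl2l1, Mcl1, Bax, Bak1, Bcl2l11, Bbc3, Pmaip1, Bid and Bad, 10 of the 48709 genes in the count table, and they were chosen by name as the main pro-survival and pro-death members of the family. Of these 10, 8 had enough counts to be tested, whereas Bcl2 and Pmaip1 were at or near 0 in every library. The RNA came from the mouse erythroid line G1E-ER4. Its GATA1 is hormone-dependent, since the line stably expresses a fusion of GATA1 with the estrogen receptor. Tamoxifen, which all cells received, moves this fusion protein into the nucleus and activates it, and red cell differentiation begins. The line was originally made from embryonic stem cells. The 2 groups of 3 libraries differed in the peptide added to the medium. CHD4-APR-treated cells received the aggregation-prone stretch of the chromatin remodeler CHD4 joined to a Tat sequence, and CTRL cells received a stretch of alanines joined to the same Tat sequence. Each peptide was given at 10 μM for 2 h, and tamoxifen followed for 28 h. The tamoxifen concentration is given as 100 nM in the growth protocol and as 100 μM in the design text. Only this 1 line was used, and it is not stated whether the libraries came from separate cultures, so the p-values measure the spread between these libraries, which may be technical.

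BCL2 family proteins decide at the outer mitochondrial membrane whether a cell enters apoptosis. Bax and Bak1 encode the effectors that perforate this membrane, the pro-survival proteins of Bcl2, Bcl2l1 and Mcl1 hold them in check, and the BH3-only proteins bind the pro-survival proteins or activate the effectors. In the erythroid lineage Bcl2l1, which encodes BCL-XL, is known to be raised by erythropoietin signalling and by GATA1, and maturing red cell precursors depend on it. The RNA level of these genes says nothing of the modification, cleavage or location of their proteins, by which the family is largely regulated.

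The segment that all these proteins share is the BH3 motif, by which a pro-death protein docks into the groove of a pro-survival one. It is shown here because this contact is what sets the 2 classes against each other. A search of the annotated coding sequences for a leucine codon, any 3 codons, a glycine, alanine or serine codon and an aspartate codon matched each of the 10 members. Pmaip1 had 2 matches, which are not shown here, and each other member had 1. The pattern alone is common, since 33.9% of the 21660 mouse coding sequences searched held it, so a match is a description and not a functional site. The matches of the other 9 members are given below as codons from GENCODE release M21 on GRCm38, each within a single coding exon, read 5′ to 3′ on the coding strand. Capitals mark the leucine codon and the adjoining pair of codons that ends in aspartate. The first of that pair was GCG in Bbc3 and AGC in Bad, and began with GG in the others shown. The pro-survival members come first, then the effectors, then the BH3-only members.
Bcl2 (chr1:106712578-106712604, minus strand): accCTCcgccgggctGGGGATgacttc
Bcl2l1 (chr2:152829700-152829726, minus strand): gcgCTGagagaggcaGGCGATgagttt
Mcl1 (chr3:95659433-95659459, plus strand): accCTGcggcgcgtgGGCGACggcgtg
Bax (chr7:45466000-45466026, minus strand): tgtCTCcggcgaattGGAGATgaactg
Bak1 (chr17:27022534-27022560, minus strand): cagCTTgctctcatcGGAGATgatatt
Bcl2l11 (chr2:128147147-128147173, plus strand): gagCTGcggcggatcGGAGACgagttc
Bbc3 (chr7:16313770-16313796, plus strand): cagCTGcggcggatgGCGGACgacctc
Bid (chr6:120897292-120897318, minus strand): catCTCgcccaaataGGCGATgagatg
Bad (chr19:6950789-6950815, plus strand): gagCTCcgaaggatgAGCGATgagttt

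Both effector genes and the BH3-only genes Bbc3 and Bad had lower RNA levels in CHD4-APR-treated cells, each with a fold of about 0.84 relative to the CTRL peptide, and the pro-survival gene Mcl1 was slightly higher. With an FDR under 0.05 by edgeR's quasi-likelihood test, 4 of the 8 members tested were lower, 1 was higher and 3 did not pass. Over all 12722 genes tested, 17.8% were lower, 20.4% were higher and 38.3% passed in either direction by the same rule. With library totals as the only scaling these shares were 11.6% lower and 23.3% higher. The members lower with the CHD4-APR peptide were all pro-death and the member that was higher was pro-survival. Of the 8, 0 passed this FDR with a change of at least 1.5-fold, as 4.23% of all genes tested did. The falls of the 4 pro-death genes were smaller, and did not pass, once the exonic length and GC content of the genes were corrected for, as described after the comparison of the classes.

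**Figure D1:**
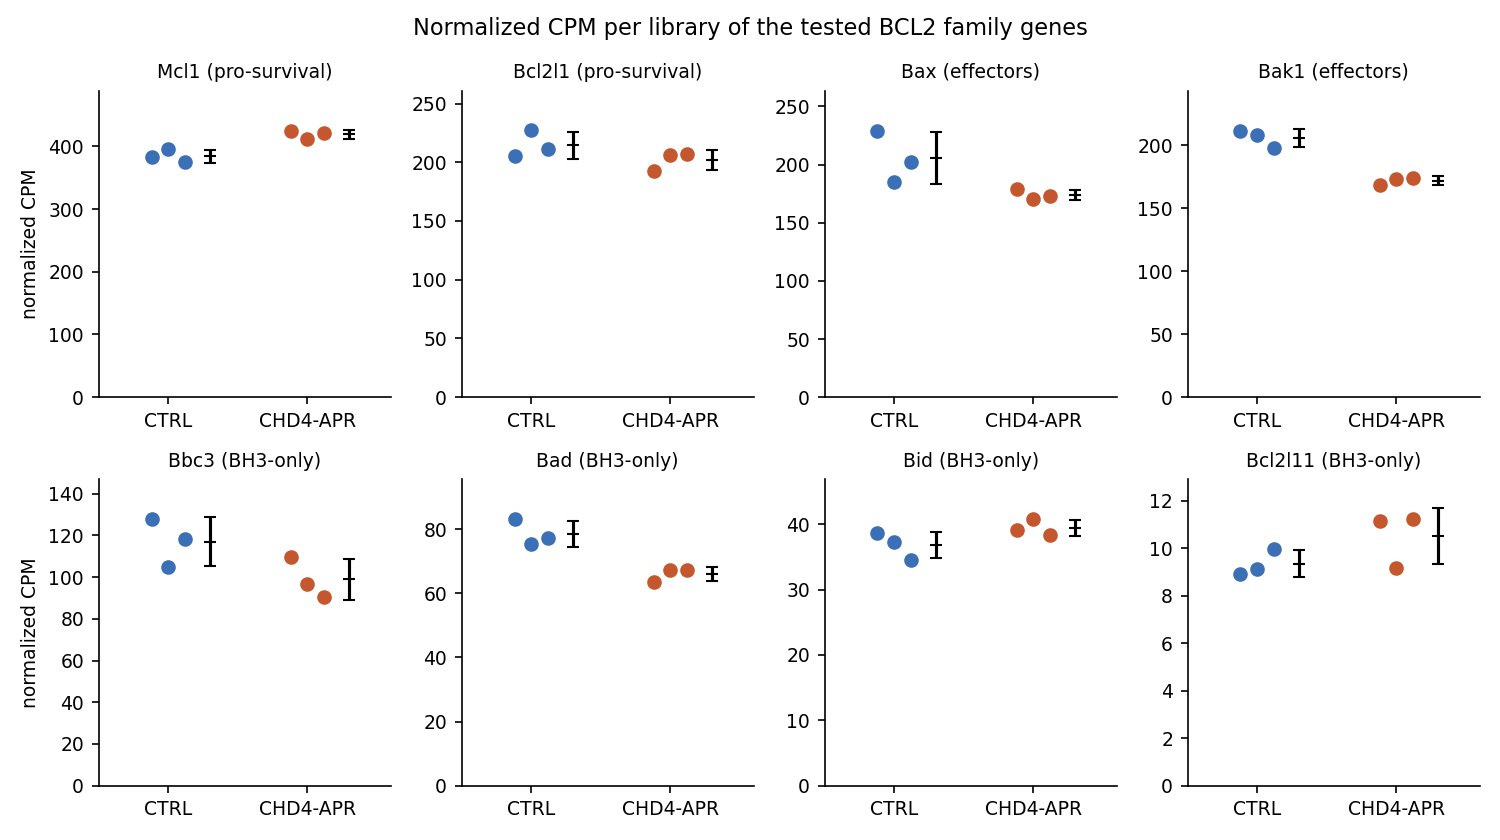
Each panel plots the normalized CPM (vertical axis, from 0) of 1 tested gene in the 3 CTRL (blue) and 3 CHD4-APR (orange) libraries as points, with the mean and SD beside them in black. The groups do not overlap for Mcl1, Bax, Bak1 and Bad, and they overlap for Bcl2l1, Bbc3, Bid and Bcl2l11.

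Among the pro-survival genes, Mcl1 encodes a short-lived protein that many blood cells need. It lies on chromosome 3 from 95658788 to 95663176 in GRCm38. Its level, in normalized CPM (counts scaled to the library size), was 382, 395 and 375 with the CTRL peptide, compared with 425, 411 and 422 with the CHD4-APR peptide. Every CHD4-APR library was above every CTRL library. The log2 fold change was 0.13 ± 0.041 (standard error), with an edgeR FDR of 0.0226, a fold of 1.09. The call was lost without CTRL replicate 3 (FDR 0.110 by edgeR), without CHD4-APR replicate 1 (FDR 0.0702) and without CHD4-APR replicate 3 (FDR 0.0627), while the log2 fold change ranged from 0.11 to 0.15 over all such omissions.

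Bcl2l1, the gene of BCL-XL, lies on chromosome 2 from 152780668 to 152831728. It had 205, 227 and 211 normalized CPM with the CTRL peptide and 192, 206 and 207 with the CHD4-APR peptide. The groups overlapped, and the lowest value was that of CHD4-APR replicate 1. Its log2 fold change was -0.087 with a 95% interval from -0.19 to 0.015 (FDR 0.172 by edgeR), so a fall of up to the lower end of that interval was not distinguished from no change. Leaving out CTRL replicate 2 gave -0.045, and leaving out CHD4-APR replicate 1 gave -0.050.

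Bcl2, the founding member of the family, lies on chromosome 1 from 106538178 to 106714274. It had 0, 0 and 1 counts with the CTRL peptide and 1, 7 and 2 counts with the CHD4-APR peptide, of total counts per library between 41687482 and 49784177. A count of 0 still allows 3 counts per library, and CHD4-APR replicate 2 alone was above that number. The summed counts of 10 against 1 gave a ratio of 9.89 with a 95% exact interval from 1.41 to 429, which covers counting error only, and 7 of the 10 counts came from CHD4-APR replicate 2. Of these 3 pro-survival members, Mcl1 and Bcl2l1 had enough counts to be tested.

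Bax encodes an effector that moves from the cytosol to mitochondria when activated, and lies on chromosome 7 from 45461697 to 45466898. It had 229, 185 and 202 normalized CPM with the CTRL peptide and 179, 170 and 173 with the CHD4-APR peptide. The groups did not overlap, although CTRL replicate 1 stood above the other CTRL libraries. The log2 fold change was -0.24 ± 0.061 (standard error), with an edgeR FDR of 0.00495. Without CTRL replicate 1 it was -0.16 (FDR 0.0111).

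Bak1 encodes the other effector, which resides on the mitochondrial membrane, and lies on chromosome 17 from 27019810 to 27029009. It had 212, 208 and 198 normalized CPM with the CTRL peptide and 168, 173 and 174 with the CHD4-APR peptide. The gap between the groups was wider than the spread within either. Bak1 had a log2 fold change of -0.26 ± 0.043 (standard error), with an edgeR FDR of 2.20e-04. Leaving out any 1 library gave values from -0.29 to -0.24. Exons of Ggnbp1 overlap those of Bak1 on the other strand, and Ggnbp1 had means of 14.1 and 10.9 normalized CPM with the CTRL and CHD4-APR peptides.

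Of all genes tested, 49.9% had groups without overlap, 25% with every CHD4-APR library above and 25% with every CHD4-APR library below the CTRL libraries. Of the 8 members tested, 4 did not overlap, a share like that of all genes.

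Bbc3 encodes PUMA, a BH3-only protein best known as a target of p53, and lies on chromosome 7 from 16308393 to 16318205. It had 128, 105 and 118 normalized CPM with the CTRL peptide and 110, 96.6 and 90.3 with the CHD4-APR peptide. Here the groups overlapped, as CHD4-APR replicate 1 was above CTRL replicate 2. Its log2 fold change was -0.24 ± 0.072 (standard error), with an edgeR FDR of 0.0139. This call was lost without CTRL replicate 1 (FDR 0.0523 by edgeR), CTRL replicate 3 (FDR 0.0525), CHD4-APR replicate 2 (FDR 0.0543) or CHD4-APR replicate 3 (FDR 0.0912), and with library totals as the only scaling (FDR 0.0521).

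Bad encodes a BH3-only protein that growth factor signalling keeps inactive by phosphorylation, and lies on chromosome 19 from 6941861 to 6951899. It had 83.2, 75.3 and 77.2 normalized CPM with the CTRL peptide and 63.7, 67.4 and 67.2 with the CHD4-APR peptide. All CHD4-APR libraries were below all CTRL libraries. The log2 fold change was -0.25 ± 0.051 (standard error), with an edgeR FDR of 0.00110. Leaving out any 1 library gave values from -0.28 to -0.21. On the other strand the exons of Gpr137 overlap 20.5% of those of Bad, and Gpr137 had means of 34.8 and 29.0 normalized CPM with the CTRL and CHD4-APR peptides.

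Bid links death receptors to mitochondria once caspases have cut it, and lies on chromosome 6 from 120891930 to 120916853. Its normalized CPM were 38.6, 37.3 and 34.6 with the CTRL peptide and 39.2, 40.8 and 38.3 with the CHD4-APR peptide. The groups overlapped in a narrow range. The log2 fold change was 0.098 with a 95% interval from -0.024 to 0.22 (FDR 0.200 by edgeR), and it was 0.054 without CTRL replicate 3. Its exons overlap those of Bcl2l13 on the other strand over 628 bases, or 17.7% of the exonic length of Bid. The library kit does not mark the strand, so reads of the 2 genes cannot be told apart there by strand. Whether such reads were counted or left out is not given in the sources used here.

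Bcl2l11 encodes BIM, the BH3-only protein that removes many blood cells deprived of cytokines, and lies on chromosome 2 from 128126038 to 128162547. It had 8.92, 9.11 and 9.98 normalized CPM with the CTRL peptide and 11.1, 9.15 and 11.2 with the CHD4-APR peptide. CHD4-APR replicate 2 lay within the CTRL range and the other CHD4-APR libraries above it. The log2 fold change was 0.17 with a 95% interval from -0.028 to 0.37 (FDR 0.168 by edgeR). Without CHD4-APR replicate 2 it was 0.26 and passed (FDR 0.0492), whereas after the length and GC correction it was 0.039 (FDR 0.801).

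Pmaip1 encodes NOXA, which binds MCL1 in particular, and lies on chromosome 18 from 66458533 to 66465565. It had 0 counts in all 6 libraries. A count of 0 allows up to 3 counts per library, or 0.0603 to 0.0720 CPM, so NOXA RNA was not detected at this depth with either peptide. Whether the authors' counting settings, which are not given in full in the sources used here, bear on these zeros was not tested.

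**Figure D2:**
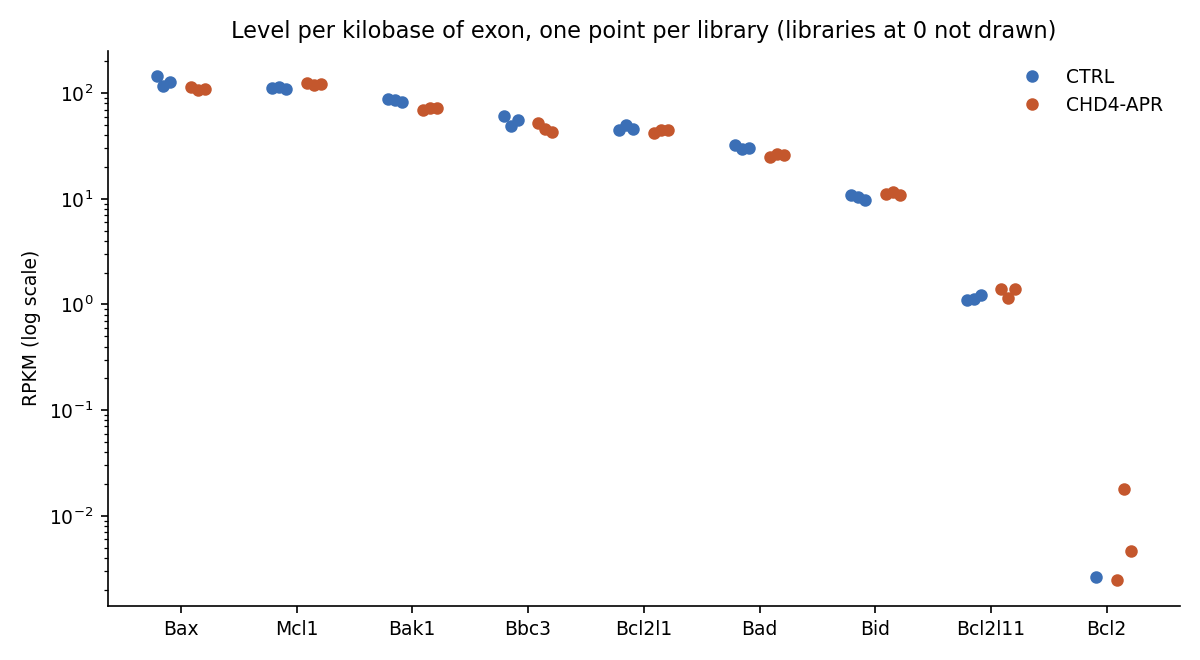
RPKM per library on a log axis, in order of the CTRL mean, with CTRL libraries in blue and CHD4-APR libraries in orange. The tested genes span from a CTRL mean of 131 RPKM for Bax to one of 1.16 RPKM for Bcl2l11. Bcl2 reaches 0.0179 RPKM at most, and libraries at 0, with Pmaip1 in all of them, are not drawn.

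Levels were compared between genes per kilobase of exon (RPKM). In CTRL cells the order was Bax with 131 ± 14.1 RPKM (SD, n = 3), Mcl1 with 112 ± 3.00 (SD, n = 3), Bak1 with 85.5 ± 3.00 (SD, n = 3), Bbc3 with 55.1 ± 5.47 (SD, n = 3) and Bcl2l1 with 46.8 ± 2.47 (SD, n = 3). Bad followed with 30.7 ± 1.61 RPKM (SD, n = 3), then Bid with 10.4 ± 0.577 (SD, n = 3) and Bcl2l11 with 1.16 ± 0.0698 (SD, n = 3). The ranges of neighbours did not overlap, except those of Bbc3 and Bcl2l1 and of Bcl2 and Pmaip1 at the foot of the order. Bax and Mcl1 were above 96.6% and 96.1% of all tested genes by this measure, and Bcl2l11 above 24.9%. Among the 10 members, Bax, Mcl1 and Bak1 were thus highest by this measure in CTRL cells, and the RNA of BIM, BCL2 and NOXA was low or not detected.

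The exonic length used affects this order. With the longest transcript in place of all annotated exons, Bcl2l1 moved above Bbc3 in CTRL cells, and in CHD4-APR-treated cells it was also above Bak1, at 78.6 against 72.0 RPKM. In CHD4-APR-treated cells Mcl1, with 123 ± 2.13 RPKM (SD, n = 3), stood above Bax, with 110 ± 2.73 (SD, n = 3), in all 3 libraries, whereas Bax stood above Mcl1 in all 3 CTRL libraries. By the longest transcript Bax stayed above Mcl1 with both peptides, at 158 and 123 RPKM in CHD4-APR-treated cells. The Mcl1 to Bax ratio was 0.868 ± 0.108 (SD, n = 3) in CTRL cells and 1.11 ± 0.0131 (SD, n = 3) in CHD4-APR-treated cells, without overlap, and by the longest transcript 0.606 ± 0.0752 (SD, n = 3) and 0.775 ± 0.00911 (SD, n = 3). The Bcl2l1 to Bax ratio was 0.362 ± 0.0568 (SD, n = 3) and 0.399 ± 0.0255 (SD, n = 3), with groups that overlapped.

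**Figure D3:**
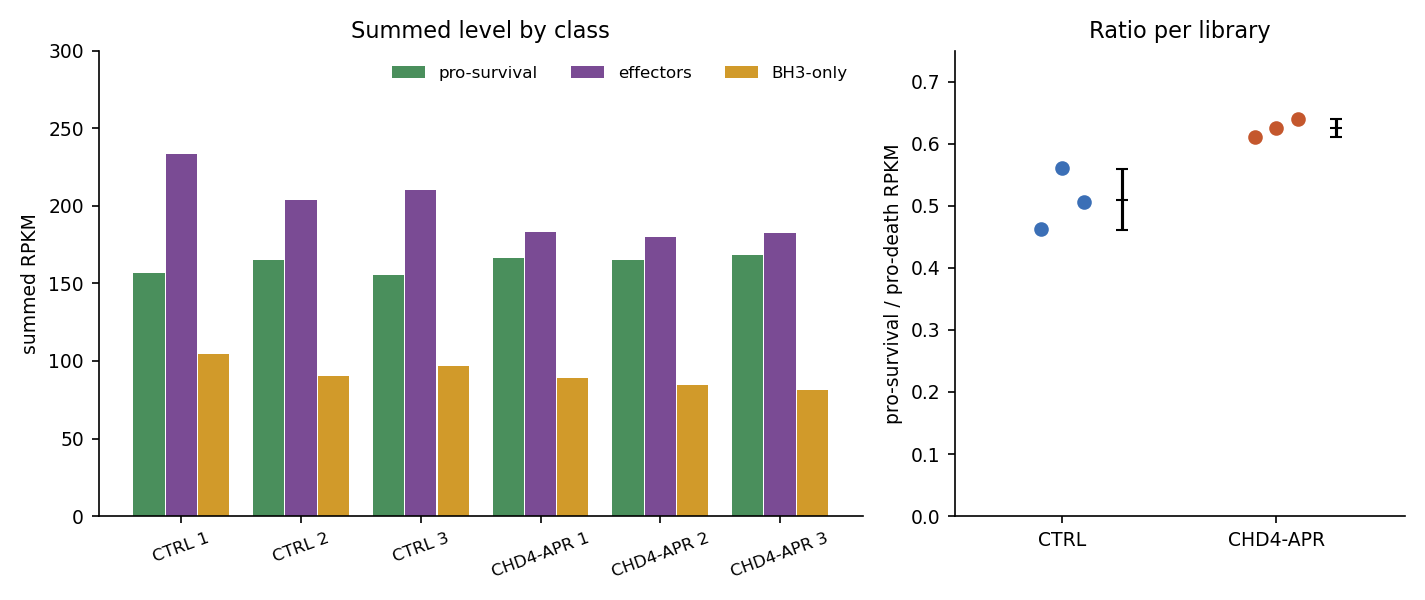
Left, the summed RPKM of the pro-survival, effector and BH3-only genes in each library as bars from 0; right, the ratio of pro-survival to all pro-death RPKM per library as points with mean and SD. The ratio runs from 0.463 to 0.561 in CTRL libraries and from 0.611 to 0.640 in CHD4-APR libraries.

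To compare the classes, the RPKM of all 10 members were summed by class in each library. The pro-survival sum was 157, 165 and 156 RPKM with the CTRL peptide and 166, 165 and 168 with the CHD4-APR peptide. The effector sum was 233, 204 and 211 RPKM with the CTRL peptide and 183, 180 and 182 with the CHD4-APR peptide. The BH3-only sum was 105, 90.4 and 96.9 RPKM with the CTRL peptide and 89.0, 84.5 and 81.0 with the CHD4-APR peptide. The ratio of pro-survival to pro-death RPKM was 0.510 ± 0.0489 (SD, n = 3) in CTRL cells and 0.625 ± 0.0146 (SD, n = 3) in CHD4-APR-treated cells, and the groups did not overlap. Without CTRL replicate 1, which had the highest effector and BH3-only sums, the CTRL mean was 0.533. Without Bax the ratio ran from 0.813 to 0.933 in CTRL libraries and from 1.05 to 1.10 in CHD4-APR libraries. Without Mcl1 it ran from 0.132 to 0.168 in CTRL libraries and from 0.154 to 0.171 in CHD4-APR libraries, and the groups overlapped. By another measure, the mean log2 CPM of the 2 pro-survival members tested minus that of the 6 pro-death members tested, the difference was 2.00 ± 0.114 (SD, n = 3) in CTRL cells and 2.15 ± 0.0488 (SD, n = 3) in CHD4-APR-treated cells, and the groups overlapped. No p is given for these measures, since the members were chosen with earlier results of these data known. In bulk RNA, fewer cells of a type and less RNA per cell cannot be told apart.

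The median log2 fold change was 0.020 over the 2 pro-survival members tested and -0.24 over the 6 pro-death members tested, against -0.012 over all genes tested. Within the pro-death class the effectors had a median of -0.25 and the 4 BH3-only members tested a median of -0.072, as Bbc3 and Bad were lower while Bid and Bcl2l11 had positive log2 fold changes that did not pass. The difference between the class medians was 0.26 in log2 units and 0.17 without CTRL replicate 1.

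**Figure D4:**
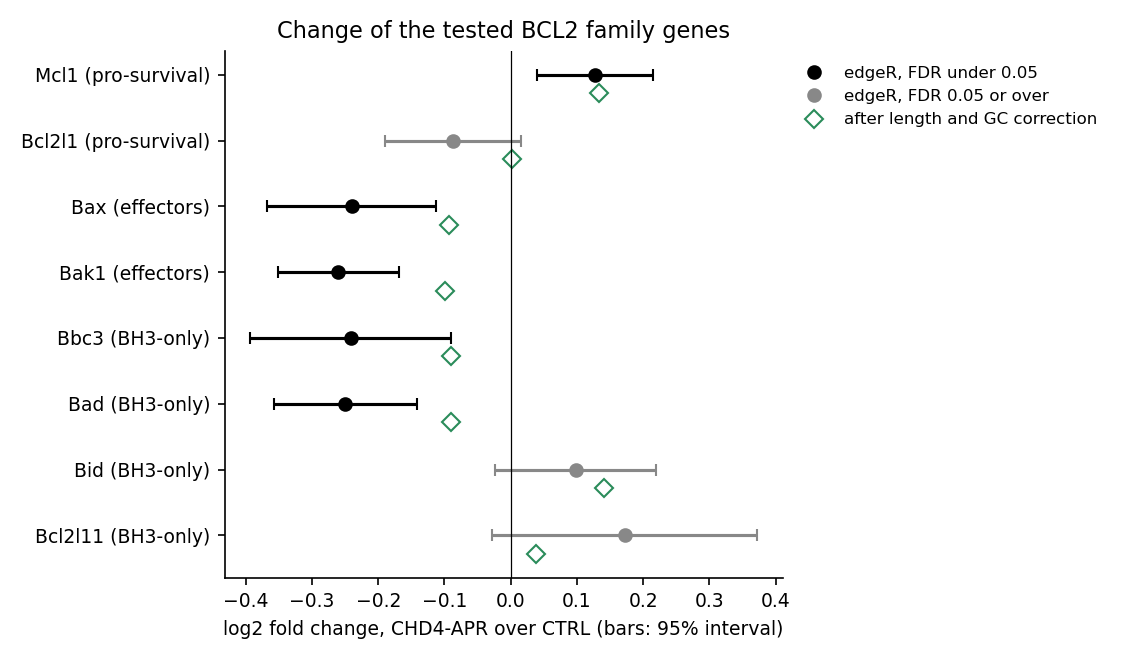
Log2 fold change of each tested gene, CHD4-APR over CTRL, with its 95% interval from edgeR (black where the FDR was under 0.05, grey otherwise) and, as open diamonds, the value after correction for length and GC content. The 4 pro-death genes that were lower lie between -0.26 and -0.24 before the correction and between -0.10 and -0.09 after it, and Mcl1 stays at 0.13.

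The members that were lower were also GC-rich and shorter than most genes. The GC content of the longest transcript was 63.5% in Bax, 57.1% in Bak1, 65.2% in Bbc3 and 57.1% in Bad, against a median of 49.6% over all genes tested, and the exonic length was 1576, 2407, 2124 and 2558 bases, against a median of 3688 bases. Mcl1, Bcl2l11 and Bid had 48.7%, 48.03% and 51.3% GC. Bcl2l1, which was not called, was also GC-rich, at 55.9%. Over all genes tested, log2 fold changes fell with rising GC content. Their median was 0.25 in the 874 genes with up to 40% GC, -0.028 in the 2728 genes from 48% to 52%, -0.15 in the 1611 genes from 56% to 60% and -0.17 in the 426 genes from 60% to 64%. The trend fitted on length and GC content amounted to -0.14 for Bax, -0.16 for Bak1, -0.15 for Bbc3 and -0.16 for Bad.

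With this trend removed, the log2 fold changes were -0.093 for Bax (FDR 0.134 by edgeR), -0.099 for Bak1 (FDR 0.0700), -0.090 for Bbc3 (FDR 0.216) and -0.091 for Bad (FDR 0.121), and 0 pro-death members passed as lower. Over all genes tested, 15.2% were lower and 12% were higher after this correction. The trend itself followed the groups, so its cause and the effect of the peptide cannot be told apart. Mcl1 kept its value, at 0.13 (FDR 0.00814), Bcl2l1 went to 0.0014, Bcl2l11 to 0.039 (FDR 0.801) and Bid to 0.14 (FDR 0.0545). The summed ratio of pro-survival to pro-death RPKM was then 0.502 to 0.556 in CTRL libraries and 0.590 to 0.611 in CHD4-APR libraries, still without overlap. This correction was chosen after seeing the data. Before it, the groups overlapped in this ratio without Mcl1, and 49.9% of all genes tested had groups without overlap. Neither is given here after the correction.

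**Figure D5:**
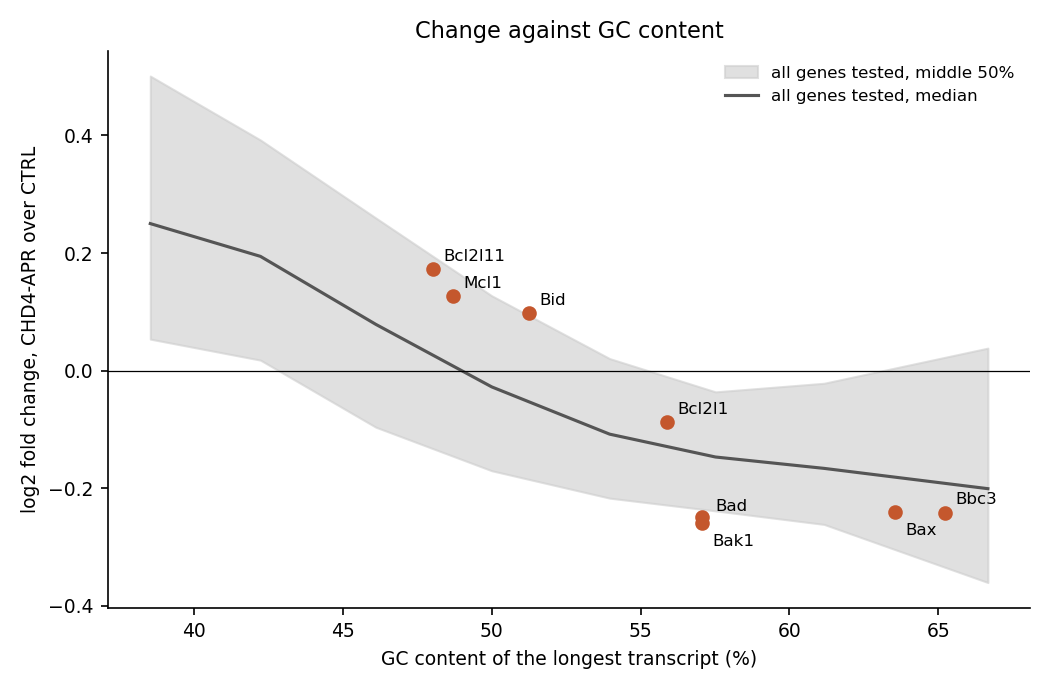
Log2 fold change (CHD4-APR over CTRL) against GC content of the longest transcript, with the median and the middle 50% of all tested genes in grey and the 8 tested members as orange points. Bax, Bak1, Bbc3 and Bad sit at 57% GC or more and below the median line; Mcl1, Bid and Bcl2l11 sit near 50% and above the line. Bcl2l1, at 55.9% GC and a log2 fold change of -0.087, also sits above it.

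Related genes were counted by list, beside 20.4% higher, 17.8% lower and a median log2 fold change of -0.012 over all genes tested. Of 13 other BCL2 family genes, 4 had enough counts to be tested, with a median of -0.063, and 1 passed as higher. Bcl2l13, a mitochondrial receptor for mitophagy, rose from 309 ± 6.16 to 343 ± 7.18 normalized CPM (SD, n = 3 each), with a log2 fold change of 0.15 (FDR 0.00842 by edgeR). The overlap with Bid named above applies to this gene too. The pro-survival gene Bcl2l2 had 24.8 and 23.8 normalized CPM with the CTRL and CHD4-APR peptides and did not pass (FDR 0.492), and Bcl2a1a, Bcl2a1b, Bcl2a1d, Bcl2l10, Hrk and Bcl2l14 had 0 counts. After the length and GC correction Bcl2l13 did not pass, with 0.029.

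Of 5 BNIP genes, 2 were lower and 1 was higher, with a median log2 fold change of 0.074. Bnip3, a hypoxia-induced mitophagy receptor, had the largest fall of all genes in these lists, from 53.6 ± 2.73 to 32.7 ± 7.75 normalized CPM (SD, n = 3 each), a log2 fold change of -0.71 (FDR 9.63e-05 by edgeR). Its close relative Bnip3l, which clears mitochondria from maturing red cells, rose from 652 ± 21.8 to 742 ± 7.81 (SD, n = 3 each), with a log2 fold change of 0.19 (FDR 0.00216). Bnip1 was lower by the test, at -0.21 (FDR 0.0265), a call lost without CTRL replicate 1 (FDR 0.0521), CTRL replicate 3 (FDR 0.122), CHD4-APR replicate 1 (FDR 0.0673) or CHD4-APR replicate 3 (FDR 0.114), and with library totals as the only scaling (FDR 0.0876). After the length and GC correction Bnip3 and Bnip1 still passed, at -0.83 and -0.33, and Bnip3l did not, at 0.028. The 3 VDAC channels of the outer membrane, to which BAK binds through VDAC2, did not pass, with log2 fold changes between -0.051 and -0.021.

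Downstream of the mitochondria, 1 of 13 tested genes of the apoptosome and the caspases was higher and 2 were lower, with a median log2 fold change of 0.0072. Over all genes tested, 38.3% passed in either direction. With upper quartile scaling 4 genes of this list were lower, where 20.4% of all genes were. With library totals as the only scaling 2 were higher, where 23.3% of all genes were. Apaf1, the scaffold that cytochrome c assembles into the apoptosome, rose from 87.0 ± 6.04 to 124 ± 3.88 normalized CPM (SD, n = 3 each), a log2 fold change of 0.51 (FDR 3.36e-06 by edgeR). Htra2 and Aifm1, proteins of the mitochondrial intermembrane space, were lower at -0.25 (FDR 3.59e-04) and -0.18 (FDR 0.00734). The caspase genes Casp9, Casp6 and Casp2 had log2 fold changes between -0.0079 and 0.092 and did not pass, and Casp8 had too few counts. Apaf1 and Aifm1 still passed after the length and GC correction, at 0.30 and -0.23, and Htra2 did not, at -0.099.

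Of 5 tested genes of the inhibitors of apoptosis, 3 were higher and 1 was lower, with a median log2 fold change of 0.39. Birc6, a very large ubiquitin ligase, rose from 59.9 ± 3.63 to 93.4 ± 5.95 normalized CPM (SD, n = 3 each), a log2 fold change of 0.64 (FDR 1.12e-06 by edgeR), and Xiap, the direct caspase inhibitor, from 32.4 ± 2.85 to 47.0 ± 2.44 (SD, n = 3 each), at 0.54 (FDR 1.53e-05). Birc3 rose by 0.39 (FDR 9.28e-04) and Birc5, the mitotic protein survivin, was lower at -0.23 (FDR 0.00814). All 4 still passed after the length and GC correction, at 0.32, 0.15, 0.30 and -0.25, with the value of Xiap reduced the most. The call of Birc5 was lost without CHD4-APR replicate 1, at -0.15 (FDR 0.0554).

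Among 6 tested genes that govern the turnover of BCL2 family proteins, 3 were higher and 1 was lower, with a median log2 fold change of 0.067. Usp9x, a deubiquitinase that stabilises MCL1, was higher with a log2 fold change of 0.38 (FDR 1.15e-05 by edgeR). Huwe1 and Fbxw7, ubiquitin ligases that target MCL1, were higher at 0.24 (FDR 2.85e-04) and 0.13 (FDR 0.0458), and Bag1, a BCL2-binding cochaperone, was lower at -0.22 (FDR 0.00175). Each of these 4 calls depended on the processing, since after the length and GC correction Usp9x, Huwe1 and Fbxw7 changed sign to -0.025, -0.029 and -0.019 and Bag1 was -0.058, and none passed. The call of Fbxw7 was also lost when any library but CTRL replicate 2 was left out (FDR 0.0665 to 0.157), with upper quartile scaling (FDR 0.0777) and without a filter on low counts (FDR 0.0711).

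All 16 upstream regulators were tested, of which 6 were higher and 3 were lower, beside 20.4% and 17.8% of all genes tested, with a median log2 fold change of 0.088. Gata1 rose from 1609 ± 91.9 to 1860 ± 35.4 normalized CPM (SD, n = 3 each), a log2 fold change of 0.21 (FDR 0.00214 by edgeR). Its reads include those of the GATA1 fusion that the line stably expresses. The rise can therefore not be assigned to the cells' own Gata1 gene. The kinase gene Jak2 and the transcription factor gene Stat5b, which relay the erythropoietin signal, were higher at 0.24 (FDR 0.00129) and 0.22 (FDR 7.72e-04), and Foxo3, whose protein is known to activate Bcl2l11 and Bbc3, at 0.17 (FDR 0.00682). Epor and Stat5a did not pass, at -0.12 (FDR 0.0670) and 0.13 (FDR 0.108), and neither did Trp53, at -0.060 (FDR 0.364). Leaving out 1 library moved Trp53 to between -0.099, without CTRL replicate 2, and -0.017, without CTRL replicate 1, through -0.092 and -0.030 without CHD4-APR replicates 1 and 2, and Epor to -0.073 without CTRL replicate 1. Epor passed as lower with upper quartile scaling (FDR 0.0378) and without CTRL replicate 2 (-0.17, FDR 0.0109), and had 0.037 after the length and GC correction, where Stat5a passed (FDR 0.0248), as it did with library totals as the only scaling (FDR 0.0437).

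The stress factors Ddit3 and Atf4 were lower, at -0.37 (FDR 9.24e-06 by edgeR) and -0.24 (FDR 0.00143), and Myc was higher at 0.33 (FDR 0.0486) from a mean of 3.76 CPM. The calls of Gata1, Stat5b, Foxo3, Ddit3 and Myc held after the length and GC correction, Gata1 with a larger value of 0.36, and those of Jak2 and Atf4 did not, at 0.098 and -0.089. The call of Myc was lost by DESeq2 (adjusted p 0.0688), by limma-voom (adjusted p 0.0647), with upper quartile scaling (FDR 0.0578 by edgeR) and without CTRL replicate 1 or 3 or CHD4-APR replicate 2 or 3 (FDR 0.0889 to 0.197), and that of Foxo3 without CHD4-APR replicate 2 (FDR 0.0686).

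The label of erythroid cells was checked against marker genes. All 8 erythroid markers were expressed, with a summed level from 34924 to 36168 CPM in CTRL and from 31391 to 32719 CPM in CHD4-APR libraries, 3 of them lower and 1 higher. Lymphocyte, fibroblast and mast cell markers summed to under 1 CPM in every library. Megakaryocyte markers summed to 47.2 to 48.5 CPM in CTRL and 42.0 to 47.7 CPM in CHD4-APR libraries, with Vwf at 0, and macrophage markers to 8.30 to 9.48 and 6.91 to 8.33 CPM, with Adgre1 and Cd14 at 0. Gp9 and Cd68 were the genes of these lists that were lower, and their part in the results above was not tested.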

How the data were processed

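RNA-Seq counts of 6 G1E-ER4 libraries were analysed, 3 per peptide, grouped by their titles. The authors trimmed adaptors with Cutadapt, aligned reads with STAR 2.7.10a to GRCm38 and used featureCounts to count reads per gene. The counts were deposited as whole numbers without scaling. The strand and multi-mapping settings are not given in the sources used here. Another 2 columns matched no sample and were left out. Total counts were 41687482 to 49784177 per library.

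Genes were named with GENCODE M21 on GRCm38, which held 48349 of 48709 identifiers. After filterByExpr 12722 genes remained. Library sizes were adjusted by TMM and the groups compared by the quasi-likelihood F-test of edgeR 4.0.16 in R 4.3.3, with Benjamini-Hochberg adjustment over all genes tested (FDR) and a threshold of 0.05. Normalized CPM are counts scaled to the TMM-adjusted library size, and RPKM are these per kilobase of all annotated exons. The standard error is the absolute log2 fold change over the root of its F value, and 95% intervals use the moderated degrees of freedom. Intervals and limits on single counts cover counting error only. For the length and GC correction, each gene's log2 CPM (prior count 2) was taken as a deviation from its mean over all libraries. In each library a smooth of these deviations on exonic length and GC content was fitted with mgcv 1.9.3. The fitted values, centred on their median, were added to the offsets of edgeR.

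The members and lists were chosen with earlier results of these data known. All members are named, and from each list the genes with an FDR under 0.05 and a mean of at least 1 log2 CPM, up to the 5 with the largest change, with Gata1, Epor, Stat5a, Stat5b, Foxo3 and Trp53 in any case. Range ends, marker genes, Bcl2l2, the VDAC and caspase genes and genes with few or 0 counts are also named, chosen after their values were seen. Single values of some list genes are not reported here. Alternatives were DESeq2 1.42.0, limma-voom (limma 3.58.1), other scalings, other filters, removal of hemoglobin genes, a stricter threshold, a replicate block, the length and GC correction and leaving out each library. The scripts were tested on simulated counts. No pair of replicates agreed within sampling noise.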

Additional observations from a re-analysis of the deposited data

How the results depend on the processing

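With DESeq2, limma-voom, RLE or upper quartile scaling, no hemoglobin genes, at least 10 counts in every library or no filter, the members called numbered 1 higher and 4 lower. The share of all genes called was then 12.7% to 21.8% higher and 10.6% to 20.4% lower. An FDR under 0.01 left 0 members higher and 3 lower, where 1942 of the 12722 genes tested were higher and 1308 lower, and library totals alone left 3 lower. The count of lower genes over the whole table was 1474 with library totals alone, where 2959 were higher, against 2270 lower and 2601 higher. With the length and GC correction 1523 genes were higher and 1935 lower, 0 members were lower, and the difference of the class medians was 0.16. Without a filter that difference was 0.37, because Bcl2 then enters with its few counts. With each library left out, 0 to 2 members were higher and 3 to 4 lower, where 16.8% to 20.2% of all genes were higher and 11.8% to 17.9% lower, and the difference of the class medians was 0.17 to 0.32. With the longest transcript 8 members kept their place in the order of CTRL levels. The difference of the summed ratio between the groups, 0.115, was 0.071 with the length and GC trend divided out, 0.20 without Bax and 0.015 without Mcl1, alternatives chosen after seeing the data, and 0.0919 to 0.141 with each library left out. After the length and GC correction the log2 fold changes that changed sign were Bcl2l1 to 0.0014, Usp9x to -0.025, Huwe1 to -0.029, Fbxw7 to -0.019, Epor to 0.037 and Trp53 to 0.0028. The cause of these changes was not tested beyond what the construction of each alternative shows.

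Same-numbered libraries deviated together weakly or not at all, with correlations across genes of 0.070, 0.055 and -0.035 for replicates 1, 2 and 3. Replicates 1 and 2 still correlated best with the same number in the other group, while both replicates 3 correlated best with replicate 2. These values do not settle whether the numbers pair the samples, and the main test did not pair them. With the replicate number as a block 2739 genes were higher and 2475 lower, that is 21.5% and 19.5% of all genes. Then 1 member was higher and 4 were lower, and Epor passed as lower (-0.12, FDR 0.0390 by edgeR). The edgeR FDR of these members was 1.13e-04 for Bax, 1.81e-05 for Bak1, 1.44e-04 for Bbc3, 1.43e-04 for Bad and 0.0260 for Mcl1. With this replicate block and the length and GC correction together, 1728 genes were higher and 2257 lower, that is 13.6% and 17.7% of all genes. Then 2 members were higher, Mcl1 and Bid, and 1 was lower, Bak1 (FDR 0.0367 by edgeR), and Htra2 (FDR 0.0430) and Jak2 (FDR 0.0434) passed too. There the difference of the class medians was 0.16, and Bcl2l1 had 0.0032, Usp9x -0.026, Huwe1 -0.029, Fbxw7 -0.019, Epor 0.037 and Trp53 0.0027.

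Depth limits what can be said of Bcl2 and Pmaip1, which had at most 3 counts per library except Bcl2 in CHD4-APR replicate 2, with 7.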
